A study of Mus musculus with 6 samples.

Results

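The genes of the proteasome were followed through 17 cell classes of the adult mouse testis. Members are the genes whose symbol is Psm, a letter from a to f and a number, and 43 of the 25771 genes measured met this rule. Psmb10, the inducible partner of Psmb7, is not analysed here. The cells came from testes of adult C57BL6 mice of 2 genotypes, NONO and NONO deltaER, and were profiled as single cells by 10x Genomics 3′ sequencing after enzymatic digestion. Libraries TA, TB and TC carry the deposited group WT, read here as NONO, and TD, TE and TF carry KI, read as NONO deltaER. If this reading were wrong, every direction between genotypes would turn. The sources used here do not say what the deltaER allele lacks, nor whether each library came from its own animal. The p-values therefore set a difference between genotypes only against the scatter between libraries of a genotype, and that scatter may be technical. The libraries held 6261 to 8909 cells and 81042216 to 110018960 UMI (unique molecular identifiers, 1 per counted transcript). Of 45836 distinct cell barcodes, 650 (1.42%) occurred in more than 1 library.

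The proteasome degrades proteins that carry ubiquitin. Its core particle is a barrel of stacked rings, with outer rings of alpha subunits (Psma genes) and inner rings of beta subunits (Psmb genes), of which Psmb5, Psmb6 and Psmb7 carry the cutting sites. A regulatory particle caps the barrel: its base holds a ring of ATPases (Psmc genes) that unfold substrates and non-ATPase scaffolds and ubiquitin receptors, and its lid (most Psmd genes) holds the deubiquitinase Psmd14. Other caps are PA28 (Psme1 with Psme2, or Psme3 alone) and PA200 (Psme4), and Psmf1, also called PI31, binds the core and was first described as its inhibitor. Germ cells are known for a proteasome of their own, in which Psma8 takes the place of Psma7 in the alpha ring, and for PA200, which has been linked to the breakdown of histones while spermatids pack their DNA. Immune cells can exchange the cutting subunits for the inducible Psmb8, Psmb9 and Psmb10.

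Of the members, 8 belong to the alpha ring including Psma8, 4 to the structural part of the beta ring, 3 are the standard cutting subunits, 2 the inducible ones and 1 (Psmb11) the thymus form. The regulatory particle has 6 base ATPases, 3 base scaffolds or receptors, 8 lid subunits and 3 chaperones of base assembly (Psmd5, Psmd9 and Psmd10), and 4 activators and 1 inhibitor complete the list. Levels are given as CPM, the share of a gene in all UMI of a class in 1 library on the usual CPM scale, as mean ± SD over the 6 libraries (n = 6) unless said otherwise. Reads come from the 3′ end, 1 UMI per transcript, so CPM is not divided by gene length. The sources used here do not say how the deposited cell classes were made, and these genes could have taken part in it. Levels by class are therefore a description and carry no test. Class names are used as deposited, with SG, SC and ST read as spermatogonia, spermatocytes and spermatids. In Round ST(Step 1-2) the late spermatocyte markers Ccna1 (572 CPM) and Aurka (842 CPM) were highest, while Piwil1, Hspa2 and Adam2 were highest in earlier classes. The round spermatid markers Acrv1, Spaca1, Catsper3, Izumo1 and Tssk2 were highest in later classes. The markers of Round ST(Step 1-2) thus do not clearly match its name. Among markers of differentiating spermatogonia, Stra8 (960 CPM) and Rhox13 (132 CPM) were highest in Differentiated SG, and Kit, Dmrtb1, Sohlh1 and Sohlh2 in other classes. The meiotic genes Dmc1 (705 CPM) and Prdm9 (532 CPM) were also highest in Differentiated SG. Meiob, Hormad1, Sycp1 and Tex101 were highest in Preleptotene SC. The markers of Differentiated SG thus match its name only in part.

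The windows just upstream of the transcription start are shown for 5 members on which the results turn. Psmf1, Psma6 and Psme3 were high late in spermatids, and Psmb6 was the cutting subunit that was highest in round spermatids. Psmd4 was the 1 member called between the genotypes, a call that 6 of 13 alternative fits kept. The windows are the 250 bases before the RefSeq start on GRCm38.p6, written 5′ to 3′ on the strand of the gene. They lie at chr2:151741311-151741560 on the minus strand for Psmf1, chr12:55383972-55384221 on the plus strand for Psma6, chr11:101315963-101316212 on the plus strand for Psme3, chr11:70525107-70525356 on the plus strand for Psmb6 and chr3:95042615-95042864 on the minus strand for Psmd4. No annotated exon overlaps them. The window of Psmf1 lies within the span of the gene in GENCODE M21, which has a start further upstream, and RefSeq gives Psma6 a second start further downstream. Capitals mark the motifs searched: the CCAAT box (CCAAT, or ATTGG on the other strand) and the antioxidant response element (TGACNNNGC), bound by the factors Nfe2l1 and Nfe2l2 that are known to drive proteasome genes.
Psmf1: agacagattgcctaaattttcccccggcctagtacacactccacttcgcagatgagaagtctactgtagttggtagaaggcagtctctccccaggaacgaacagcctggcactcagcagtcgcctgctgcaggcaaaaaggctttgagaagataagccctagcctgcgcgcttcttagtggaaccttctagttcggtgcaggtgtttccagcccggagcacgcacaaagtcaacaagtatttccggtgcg
Psma6: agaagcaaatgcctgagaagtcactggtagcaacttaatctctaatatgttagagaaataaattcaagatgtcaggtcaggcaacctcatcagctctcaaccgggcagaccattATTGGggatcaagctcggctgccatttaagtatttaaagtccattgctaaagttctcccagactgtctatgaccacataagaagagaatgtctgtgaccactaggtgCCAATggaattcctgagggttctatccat
Psme3: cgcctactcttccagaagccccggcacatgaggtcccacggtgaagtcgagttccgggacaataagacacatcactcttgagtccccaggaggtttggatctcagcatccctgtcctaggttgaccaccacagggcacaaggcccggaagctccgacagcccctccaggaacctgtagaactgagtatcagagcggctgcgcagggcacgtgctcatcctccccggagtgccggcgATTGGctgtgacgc
Psmb6: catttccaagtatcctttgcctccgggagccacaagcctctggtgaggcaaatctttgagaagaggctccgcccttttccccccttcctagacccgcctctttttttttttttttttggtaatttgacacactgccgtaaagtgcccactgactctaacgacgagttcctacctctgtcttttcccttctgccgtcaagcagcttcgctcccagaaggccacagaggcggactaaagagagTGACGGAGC
Psmd4: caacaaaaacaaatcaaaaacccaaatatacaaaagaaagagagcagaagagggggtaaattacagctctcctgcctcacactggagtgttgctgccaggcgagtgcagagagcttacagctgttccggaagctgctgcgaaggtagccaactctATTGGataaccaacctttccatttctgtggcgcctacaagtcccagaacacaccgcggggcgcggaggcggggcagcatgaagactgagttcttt

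Both strands of all 32851 such RefSeq windows were searched, of which 39 belong to 36 members. The CCAAT box was in the windows of 14 members, or 35.9% of the member windows, against 33.8% of all windows. The antioxidant response element was in those of 5 members (Psmb5, Psmb6, Psmc6, Psmd9 and Psmd12), 12.8% of the member windows against 10.2% of all. The cyclic AMP response element (TGACGTCA), whose first 4 letters are also those of the antioxidant element, was in none of them and in 1.55% of all windows. None of the 3 motifs was in the window of Psmf1. These are matches of letters and not sites of binding.

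Summed over all members, transcripts of the proteasome differed by less than 2-fold between the germ cell classes up to Round ST(Step 6-7) and were lower after it. The sum was 6219 ± 279 CPM in undifferentiated spermatogonia, 6088 ± 92.4 in the class Lep/Zygo/ePac SC, 5237 ± 56.3 in IPac/eDip SC, 4947 ± 52.1 in Round ST(Step 4-5) and 6305 ± 123 in Round ST(Step 6-7). It was lower at 4004 ± 241 CPM in Differentiated SG, 2945 ± 155 in Round ST(Step 7-8) and 664 ± 67.0 in Elongated ST. Since cells differ in total RNA, the same sums came to 27.5 UMI per cell in undifferentiated spermatogonia, 186 in IPac/eDip SC, 90.4 in Round ST(Step 4-5), 55.6 in Round ST(Step 6-7) and 1.80 in Elongated ST.

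The makeup of the sum changed over the classes named as round spermatids. Psma6 and Psmf1 together held 3.53% of the member UMI in Round ST(Step 1-2), 19.8% in Step 4-5, 41.9% in Step 5-6, 67.3% in Step 6-7 and 83.6% in Step 7-8. Without these genes the sum was 5750 ± 270 CPM in undifferentiated spermatogonia and 3966 ± 49.8 in Round ST(Step 4-5), and then 2799 ± 49.3 in Step 5-6, 2060 ± 84.5 in Step 6-7 and 483 ± 19.7 in Step 7-8. The number of members at 10 CPM or more was 40 in undifferentiated spermatogonia, 37 in Lep/Zygo/ePac SC, 33 in Round ST(Step 4-5), 23 in Step 5-6, 15 in Step 6-7 and 8 in Step 7-8.

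The 40 members at 10 CPM or more in undifferentiated spermatogonia were followed from there. Their median ratio to that class was 0.87 in Lep/Zygo/ePac SC, 0.628 in IPac/eDip SC and 0.671 in Round ST(Step 3), beside 0.626, 0.405 and 0.455 over the 10427 genes chosen in the same way. In Round ST(Step 4-5) it was 0.407 beside 0.350, and in Step 6-7 it was 0.0574 beside 0.0723. In Step 6-7, 32 of the 40 were at least 2-fold lower than in undifferentiated spermatogonia, as were 77.1% of all such genes, and 4 (Psmc2, Psmd8, Psma6 and Psmf1) were at least 2-fold higher, as were 10.2% of all. The map of levels over the classes shows most members fading from the middle of round spermatid development, with a few rows that do not.

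**Figure D1:**
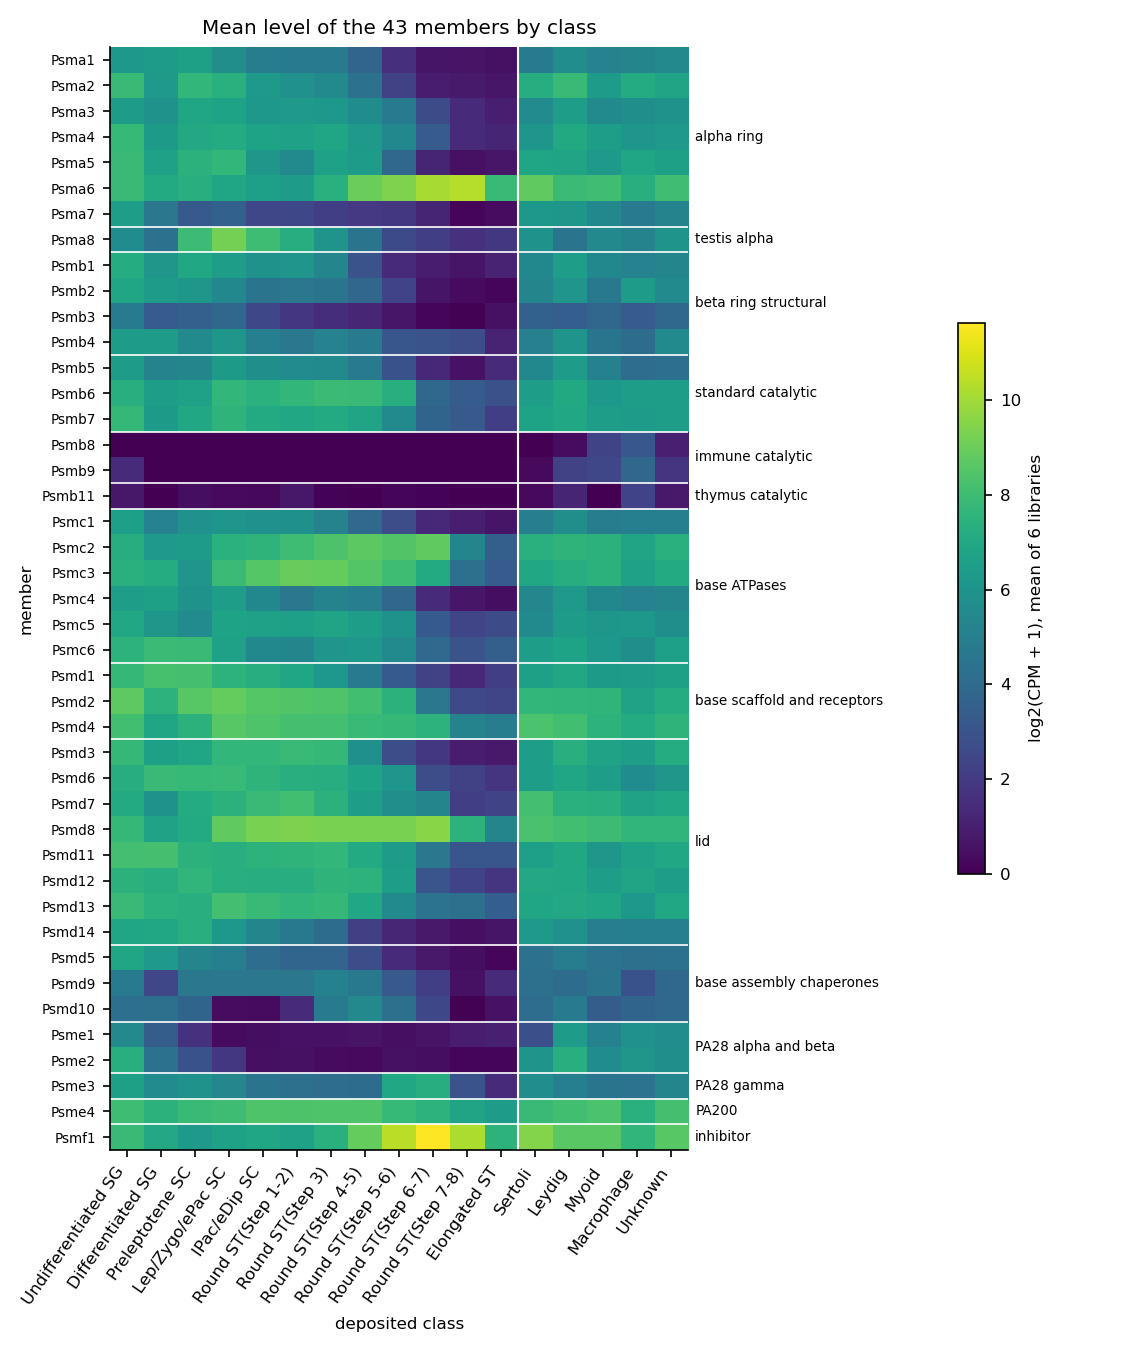
Mean level over the 6 libraries, as log2(CPM + 1), of the 43 members (rows, ordered by role) in the 12 germ cell and 5 somatic classes (columns, parted by a white line). Members at 10 CPM or more number 33 in Round ST(Step 4-5) and 15 in Step 6-7, where Psma6, Psmf1, Psmc2 and Psmd8 stay bright.

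Psma7 and Psma8 occupy the same place in the alpha ring, and Psma8, the testis form, is needed for male meiosis. In undifferentiated spermatogonia Psma7 (chr2:180036374-180042433, minus strand, mm10) was at 99.9, 101 and 78.4 CPM in TA, TB and TC and at 85.3, 78.3 and 76.4 CPM in TD, TE and TF. Psma8 was there at 58.6, 27.2, 68.4, 41.9, 59.8 and 44.8 CPM in TA to TF. In Preleptotene SC Psma7 was at 8.90 ± 5.14 CPM, on 18 UMI in all, while Psma8 was at 241, 272, 309, 295, 214 and 178 CPM. In Lep/Zygo/ePac SC, its highest class, Psma8 was at 607, 604, 613, 584, 585 and 576 CPM in TA to TF, and Psma7 at 11.1 ± 1.06 CPM. The ranges over the libraries did not overlap between spermatogonia and either of these classes for either gene.

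As UMI of the pair, Psma8 took 36.3% ± 8.89 in undifferentiated spermatogonia, 96.3% ± 2.89 in Preleptotene SC and 98.2% ± 0.16 in Lep/Zygo/ePac SC. The step between them, Differentiated SG, had 50.6% ± 19.2 on only 59 UMI. The share was 98.3% ± 0.43 in IPac/eDip SC, 97.0% ± 0.77 in Round ST(Step 1-2), 94.9% ± 0.52 in Step 3 and 88.1% ± 0.73 in Step 4-5. It was lower, at 64.9% ± 7.76 (526 UMI), in Step 5-6 and at 72.3% ± 7.95 (365 UMI) in Step 6-7. Psma8 itself was at 257 ± 7.40 CPM in IPac/eDip SC, 150 ± 6.24 in Round ST(Step 1-2), 64.6 ± 2.32 in Step 3, 21.1 ± 0.925 in Step 4-5 and 5.04 ± 0.783 in Step 5-6. Per cell it had 0.409 ± 0.118 UMI in Preleptotene SC, 10.1 ± 2.90 in Lep/Zygo/ePac SC and 9.08 ± 1.86 in IPac/eDip SC. From Step 7-8 the pair had 35 UMI or fewer, and no share is given.

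**Figure D2:**
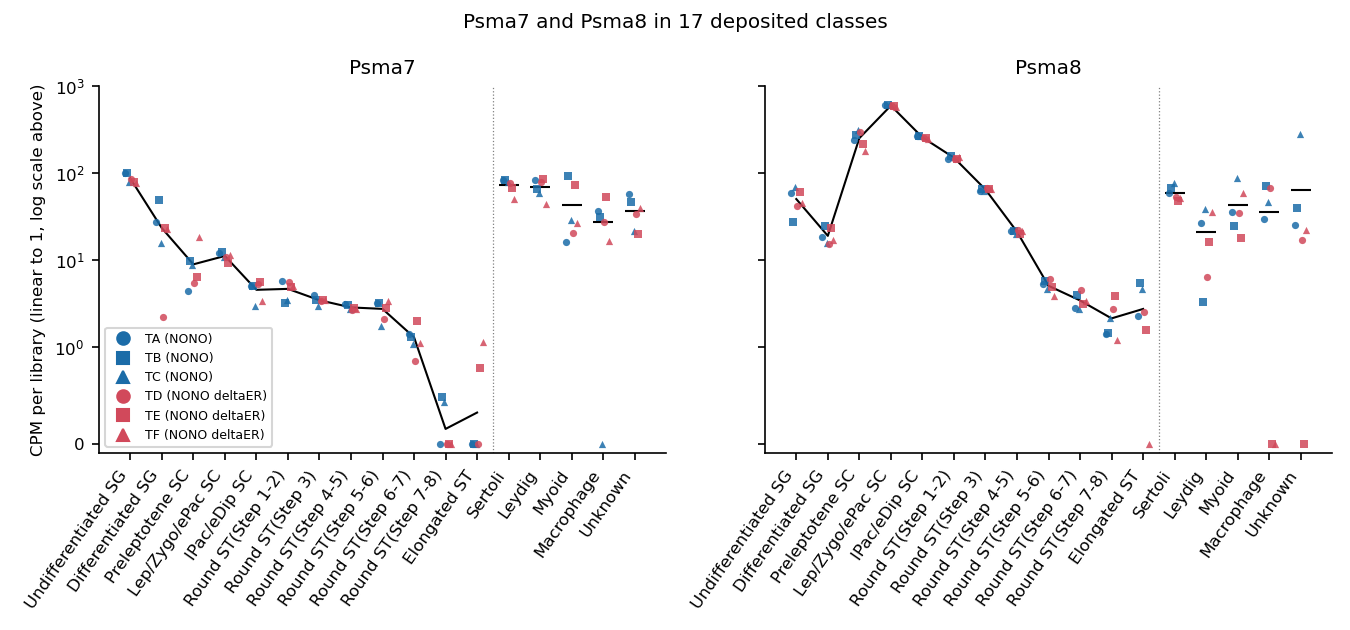
Level of Psma7 (left) and Psma8 (right) in the 17 classes, in CPM on an axis that is linear up to 1 and logarithmic above, with 1 point per library (blue NONO, red NONO deltaER), a line through the germ cell means and a bar at each somatic mean. Psma7 lies above 76 CPM in undifferentiated spermatogonia and under 20 CPM in every germ cell class from Preleptotene SC on, and Psma8 is highest in Lep/Zygo/ePac SC at 576 to 613 CPM.

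Somatic classes also held Psma8 UMI. Psma8 was at 59.0 ± 10.8 CPM in Sertoli cells beside Psma7 at 72.9 ± 12.7, and at 21.1 ± 15.0 CPM in Leydig cells beside Psma7 at 69.3 CPM (44.0 to 84.9 over the libraries). Transcripts of late spermatocytes were in these classes too: Hspa2 was at 497 CPM in Sertoli cells, 455 CPM in undifferentiated spermatogonia and 2866 CPM in Lep/Zygo/ePac SC. The ratio of Psma8 to Piwil1 UMI was 0.331 ± 0.014 in Lep/Zygo/ePac SC, 0.875 ± 0.387 in Sertoli cells and 1.47 ± 0.58 in undifferentiated spermatogonia. The mean ratio to Hspa2 UMI was instead highest in Lep/Zygo/ePac SC, at 0.208 ± 0.007. It was 0.129 ± 0.044 in Sertoli cells and 0.126 ± 0.061 in undifferentiated spermatogonia, whose ranges over the libraries overlapped. The part of free RNA from germ cells in the Psma8 of these classes was not tested.

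Among the 15682 genes with at least 10 CPM in a class, the 4 whose mean log2(CPM + 1) over the 17 classes was most like that of Psma8 were Tbc1d12 (Pearson r = 0.976), Glipr1l2 (0.972), Mks1 (0.971) and Sprtn (0.969). These 4 were highest in Lep/Zygo/ePac SC, as Psma8 was. The classes share libraries and depth, so these values are a description.

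The other alpha subunits, apart from Psma6, were highest in undifferentiated spermatogonia (Psma2, Psma4 and Psma5) or in Preleptotene SC (Psma1 and Psma3). Psma2 was at 229 CPM in undifferentiated spermatogonia, 164 in Lep/Zygo/ePac SC, 45.0 in Round ST(Step 3) and 0.864 in Step 6-7. Psma4 was at 219 CPM in undifferentiated spermatogonia, 112 in Round ST(Step 3), 42.6 in Step 5-6 and 9.45 in Step 6-7. The structural beta subunits Psmb1 to Psmb4 were all highest in undifferentiated spermatogonia, with 146 CPM for Psmb1 and 26.3 for Psmb3. By Round ST(Step 5-6) these 4 ranged from 0.632 CPM (Psmb3) to 7.55 CPM (Psmb4).

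Of the cutting subunits, Psmb5 (chymotrypsin-like) was at 99.9, 102, 68.4, 72.3, 90.1 and 73.9 CPM in undifferentiated spermatogonia of TA to TF, at 78.6 ± 10.6 CPM in Lep/Zygo/ePac SC and at 26.4 ± 2.70 in Round ST(Step 4-5). Psmb7 (trypsin-like) was at 241, 219, 182, 215, 204 and 207 CPM in undifferentiated spermatogonia, at 167 to 209 CPM in Lep/Zygo/ePac SC and at 111 ± 7.82 in Round ST(Step 4-5). Psmb6 (caspase-like) kept its level longest, with 155 ± 15.2 CPM in undifferentiated spermatogonia. It was at 237, 225, 266, 248, 254 and 246 CPM in Round ST(Step 3), its highest class, and at 162 ± 9.43 CPM in Step 5-6, where Psmb5 was at 6.72 ± 0.847 and Psmb7 at 45.1 ± 2.19. In Step 6-7 the 3 were at 1.42, 14.4 and 12.5 CPM for Psmb5, Psmb6 and Psmb7. Each library had the same order of classes for Psmb6 from Step 3 to Step 6-7.

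The inducible subunits were close to absent from germ cells. Psmb8 had 1 UMI among 537154915 UMI of the 12 germ cell classes (0.00186 CPM, upper exact 95% limit 0.0104 for counting error only), and Psmb9 had 15, of which 12 were in undifferentiated spermatogonia (1.81 CPM, exact 95% interval 0.935 to 3.16). In macrophages Psmb8 had 5 and Psmb9 7 of 455083 UMI, or 10.99 CPM (3.57 to 25.6) and 15.4 CPM (6.18 to 31.7). Leydig cells had 8 UMI of Psmb9 (3.76 CPM), and the class Myoid 5 of Psmb8 and 4 of Psmb9. Since endothelial and lymphoid markers were also in Myoid, which of its cells held these UMI was not tested. As a share of the UMI of Psmb5 to Psmb9, Psmb8 and Psmb9 took 12 of 111 (10.8%, exact 95% interval 5.71 to 18.1) in macrophages and 9 of 199 (4.52%) in Myoid. They took 9 of 736 (1.22%) in Leydig cells and 12 of 3019 (0.397%) in undifferentiated spermatogonia. Psmb10 and Psmb11 are not in this share, while Psmb7 is. Over the 5 libraries in which macrophages had any such UMI the share was 10.2% ± 3.70 (SD, n = 5), and TC had none. On cells with at least 1000 UMI this mean was 5.95%. Psmb11, the thymus form, had 84 UMI in all cells, and the end of its transcript shares short stretches with many other genes, so its source is uncertain.

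Genes induced together with the inducible subunits differed among themselves in germ cells. The class I heavy chain H2-K1 was at 622 CPM in Differentiated SG and 483 CPM in Preleptotene SC, beside 817 CPM in macrophages. The regulator Irf1 was at 437 CPM in the class Myoid, 394 in Leydig cells and 65.4 in undifferentiated spermatogonia, and under 1 CPM in every later germ cell class. Tap1 and Tap2 were under 1 CPM in all 12 germ cell classes. Tap1, which neighbours Psmb9 on the opposite strand with overlapping spans, was at 18.4 CPM in macrophages. The sources used here do not say whether reads were assigned by strand, so Psmb9 and Tap1 are not fully separable.

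The base ATPases split into those that faded early and those that lasted. Psmc1, Psmc4, Psmc5 and Psmc6 were between 1.46 and 14.6 CPM in Round ST(Step 6-7). Psmc2 was at 153 ± 38.6 CPM in undifferentiated spermatogonia, 332 ± 14.6 in Round ST(Step 3), 349 ± 21.8 in Step 5-6 and 439 ± 26.1 in Step 6-7, and then at 40.0 ± 6.07 in Step 7-8. Cells of Step 6-7 held fewer UMI than those of Step 5-6, with medians of 6675.5 to 8186 against 12651 to 15806.5 over the libraries. The higher CPM of Psmc2 in Step 6-7 than in Step 5-6 was thus a higher share and not a higher count per cell. Psmc3 was highest in Round ST(Step 1-2), with 491 CPM, and was still at 139 CPM in Step 6-7. The 6 ATPases build the same ring.

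Of the base scaffolds, Psmd2 was at 428 CPM in undifferentiated spermatogonia, 473 in Lep/Zygo/ePac SC and 23.8 in Round ST(Step 6-7), and Psmd1 was highest in Differentiated SG with 303 CPM. The ubiquitin receptor Psmd4 was at 277 ± 23.2 CPM in undifferentiated spermatogonia, 114 ± 27.3 in Differentiated SG, 177 ± 56.3 in Preleptotene SC and 390 ± 17.3 in Lep/Zygo/ePac SC, and still at 179 ± 13.2 in Round ST(Step 6-7). In the lid, the deubiquitinase Psmd14 was at 157 CPM in Preleptotene SC and 3.59 CPM in Round ST(Step 4-5), whereas Psmd8 was at 216 ± 35.2 CPM in undifferentiated spermatogonia, 631 ± 36.2 in IPac/eDip SC, 628 ± 32.7 in Round ST(Step 5-6) and 747 ± 28.5 in Step 6-7. As for Psmc2, the higher CPM of Psmd8 in Step 6-7 than in Step 5-6 was not a higher count per cell. The other 6 lid subunits were at 2.69 to 37.9 CPM in Step 6-7.

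Psmd10 (gankyrin), a chaperone of base assembly, is the 1 X-linked member (chrX:140948429-140956728, minus strand, mm10). It was at 18.1 ± 3.18 CPM in undifferentiated spermatogonia, 0.306 in Lep/Zygo/ePac SC and 0.279 in IPac/eDip SC, on 12 and 13 UMI, and then at 27.4 ± 3.72 in Round ST(Step 3) and 43.4 ± 5.09 in Step 4-5, its highest class. Meiotic cells are known to silence the X chromosome. Ubqln2, an X-linked shuttle of ubiquitylated proteins, was at 31.8 CPM in undifferentiated spermatogonia and 0.345 in Lep/Zygo/ePac SC, but at 0.526 in Round ST(Step 4-5). Of the autosomal chaperones, Psmd9 was at 26.6 CPM in undifferentiated spermatogonia and 23.8 in Lep/Zygo/ePac SC. Psmd5 was at 116 CPM in undifferentiated spermatogonia, 31.8 in Lep/Zygo/ePac SC and 0.722 in Round ST(Step 6-7). The part of X silencing in the levels of Psmd10 and Ubqln2 was not tested.

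Psme1 and Psme2, which form the PA28 cap that interferon induces, were highest in Leydig cells and, among germ cells, in undifferentiated spermatogonia. Psme2 was at 138, 135, 140, 167, 189 and 149 CPM in undifferentiated spermatogonia of TA to TF, 19.8 ± 12.6 in Differentiated SG, 2.73 ± 0.640 in Lep/Zygo/ePac SC and at most 0.444 in every later germ cell class. Psme1 was at 34.7, 45.3, 32.8, 49.9, 58.1 and 36.5 CPM in undifferentiated spermatogonia, 2.17 ± 1.79 in Preleptotene SC and at most 1.04 later. Leydig cells had both, with 82.7 ± 30.2 CPM of Psme1 and 155 ± 35.7 of Psme2, and Sertoli cells had 6.26 ± 2.16 and 64.1 ± 16.9. In undifferentiated spermatogonia and Leydig cells Psmb8 and Psmb9 had 0 to 12 UMI each.

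Psme3, whose product forms a nuclear PA28 cap by itself, had 2 separate highs. It was at 96.3, 72.5, 92.6, 115, 106 and 100 CPM in undifferentiated spermatogonia of TA to TF and at 16.3 ± 1.78 CPM in Round ST(Step 4-5). In Step 5-6 it was at 109, 118, 135, 130, 131 and 113 CPM, and in Step 6-7 at 152 ± 7.42. It was then at 6.89 ± 2.70 in Step 7-8. Per cell these were 0.298 UMI in Step 4-5, 1.96 in Step 5-6, 1.33 in Step 6-7 and 0.0340 in Step 7-8, so the second high also held per cell.

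Psme4 (chr11:30771726-30880361, plus strand, mm10) varied less than most members, from 262 ± 16.1 CPM in undifferentiated spermatogonia to 174 ± 42.5 in Differentiated SG, 347 ± 67.0 in IPac/eDip SC, 346 ± 56.1 in Round ST(Step 4-5), 183 ± 33.2 in Step 6-7 and 82.4 ± 9.60 in Elongated ST. Of all 17 classes, each overlapped in its range over the libraries with the next in order of level. Somatic classes had 168 ± 86.5 CPM (macrophages) to 319 ± 95.8 (myoid cells), and the part of free germ cell RNA in these was not tested. In IPac/eDip SC the libraries were at 409, 411, 278, 274, 308 and 402 CPM in TA to TF. TA, TB and TF lay above TC, TD and TE, which cuts across the genotypes, and the same held in every germ cell class from Lep/Zygo/ePac SC to Round ST(Step 7-8). The genes most like Psme4 over the classes were Cdc27 (Pearson r = 0.949), Zdhhc5 (0.943), Rdx (0.942), Arhgap29 (0.939) and Hipk3 (0.938).

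The latest members were Psmf1 and Psma6. Psmf1 (chr2:151715812-151744186, minus strand, mm10) was at 99.4 CPM in Round ST(Step 1-2), 165 ± 18.8 in Step 3, 464 ± 56.7 in Step 4-5 and 1354 ± 135 in Step 5-6. In Step 6-7 it was at 3003, 2883, 3320, 3346, 3341 and 3060 CPM in TA to TF, and no other class reached this range. It was then at 1186 ± 116 CPM in Step 7-8 and 182 ± 31.5 in Elongated ST. Its UMI per cell were 2.45 ± 0.59 in Step 3, 8.54 ± 1.90 in Step 4-5, 21.7 ± 3.34 in Step 5-6, 27.9 ± 3.94 in Step 6-7 and 5.80 ± 0.82 in Step 7-8. The higher share of Psmf1 up to Step 6-7 was thus also a higher count per cell.

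Psma6 (chr12:55384222-55418454, plus strand, mm10), a plain alpha subunit, was at 81.7 CPM in Round ST(Step 1-2), 517 ± 13.5 in Step 4-5, 668 ± 22.6 in Step 5-6 and 1086 ± 34.9 in Step 6-7. It was highest in Step 7-8, with 1212, 1222, 1333, 1278, 1336 and 1277 CPM in TA to TF, and was at 233 ± 41.0 in Elongated ST. Per cell it had 9.44 ± 1.27 UMI in Step 4-5, 10.7 ± 0.93 in Step 5-6, 9.55 ± 0.76 in Step 6-7 and 6.24 ± 0.61 in Step 7-8. From Step 5-6 to Step 7-8 its CPM was thus higher, and its count per cell lower, in each next class. The other alpha subunits were at 0.582 to 9.45 CPM in Step 6-7.

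**Figure D3:**
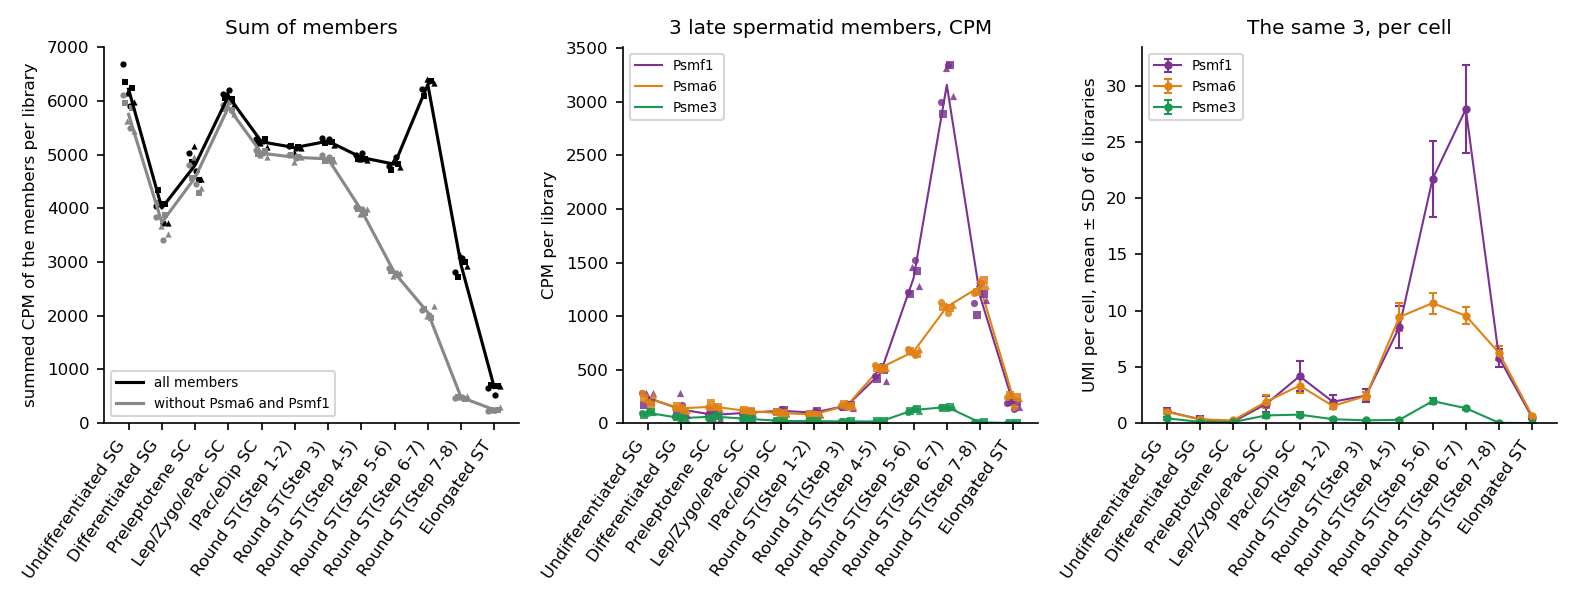
Summed CPM of all members and of all but Psma6 and Psmf1 (left), CPM of Psmf1, Psma6 and Psme3 (middle; points are libraries and lines join the means in both) and their UMI per cell as mean ± SD over the 6 libraries (right), over the 12 germ cell classes. Psmf1 and Psma6 exceed 1000 CPM in every library of Round ST(Step 6-7), and the sum without them is 2060 CPM there against 6305 CPM with them.

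Both genes also had UMI in classes outside the spermatids, beside the most abundant spermatid transcripts. In Sertoli cells Psma6 was at 434 ± 45.9 CPM and Psmf1 at 713 ± 125, with Prm2 at 21021 CPM, Smcp at 8557 and Tnp2 at 5478. The ratio of Psmf1 to Prm2 UMI was 0.035 ± 0.003 in Sertoli cells and 0.048 ± 0.003 in Round ST(Step 6-7), and 0.048 ± 0.008 in undifferentiated spermatogonia. In the same order of classes, Psmf1 to Tnp2 was 0.130 ± 0.016, 0.104 ± 0.013 and 0.210 ± 0.058. Psma6 to Prm2 was 0.022 ± 0.005, 0.016 ± 0.002 and 0.048 ± 0.015, and Psma6 to Smcp was 0.053 ± 0.013, 0.067 ± 0.003 and 0.154 ± 0.038. The ratios thus differed with the reference gene. The part of free spermatid RNA in the Psmf1 and Psma6 of these classes was not tested.

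The pathway around the proteasome was read from a list of 33 genes, 28 of them measured. The maturation factor Pomp, which helps to close the core particle, was at 206 ± 14.1 CPM in undifferentiated spermatogonia, 148 ± 8.07 in Round ST(Step 1-2), 61.6 ± 2.76 in Step 3 and 9.53 ± 0.686 in Step 4-5. It was thus low before Psmb6 and Psmb7 were. Nfe2l1, the transcription factor that raises proteasome genes when the proteasome is short, was at 125 ± 17.6 CPM in undifferentiated spermatogonia and 5.75 ± 1.07 in Round ST(Step 4-5), and its protease Ddi2 at 96.5 ± 18.1 and 2.91 ± 0.473. Akirin2, which carries proteasomes into the nucleus, was at 150 ± 26.0 CPM in undifferentiated spermatogonia and 570 ± 26.3 in Round ST(Step 1-2). The shuttle receptor Rad23b was at 393 ± 39.8 CPM in undifferentiated spermatogonia and 1602 ± 99.9 in Elongated ST, and ubiquitin itself (Ubb) at 1632 ± 202 and 1553 ± 133, against 3655 ± 132 in Round ST(Step 3). The unfoldase Vcp was at 426 ± 92.3 CPM in Preleptotene SC and 3.88 ± 0.615 in Round ST(Step 6-7).

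The genotypes were compared in each class on UMI summed per library, 3 libraries against 3. Over the 17 classes 40 members were tested in at least 1 class and 5 in all, which made 515 tests of a member in a class. The filter on low counts left Psmb8, Psmb9 and Psmb11 untested in every class. Of the 515 tests 1 passed the threshold of 0.05 after adjustment over all genes of the class (edgeR quasi-likelihood, Benjamini-Hochberg): Psmd4 was lower in NONO deltaER in Preleptotene SC. Over all genes 0.0154% of the 143072 tests in the 17 classes passed. No member passed by edgeR in the sum of all cells, where 41 members were tested, 0% of genes passed and 6% had an unadjusted p under 0.05. There 1 member had such a p, Psme2, with means of 3.34 ± 0.511 and 4.38 ± 0.516 CPM for NONO and NONO deltaER (SD, n = 3 each), groups that overlapped (log2 fold change 0.38, edgeR adjusted p = 0.823). Within classes 19 tests of a member had an unadjusted p under 0.05, 16 of them with a fold change below 0, beside 4.78% of all tests.

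Psmd4 (chr3:95032694-95042614, minus strand, mm10), also called Rpn10, holds ubiquitin chains on the regulatory particle. In Preleptotene SC it was at 205, 178 and 274 CPM in TA, TB and TC and at 131, 144 and 127 CPM in TD, TE and TF. The genotypes did not overlap, and the means were 219 ± 49.4 and 134 ± 8.62 CPM (SD, n = 3 each). The log2 fold change of NONO deltaER over NONO was -0.71 (SE 0.17) with an edgeR adjusted p of 0.0449. In this class 0.327% of the 5818 genes tested were called, 0.155% as lower in NONO deltaER. The result rests on 351 UMI of Psmd4, and TC, the highest library, had the fewest cells of the class. Without TC the log2 fold change was -0.58 with an adjusted p of 0.290, and DESeq2 gave -0.73 with an adjusted p of 0.999.

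Other values differed between the genotypes in the same cells. The late spermatocyte markers (5 of 5 measured had UMI) summed to 1068 to 1210 CPM in the NONO libraries and 815 to 918 CPM in the NONO deltaER ones. The markers of undifferentiated spermatogonia summed to 22.1 to 35.6 and 9.59 to 10.9 CPM, with Ret, Lin28a and Sall4 at 0. The early spermatocyte markers overlapped, at 8645 to 9580 and 8274 to 9032 CPM, and so did the elongating spermatid markers, at 2869 to 8047 and 2319 to 5695 CPM. The part of these in the difference of Psmd4 was not tested. In Lep/Zygo/ePac SC, where Psmd4 was highest, it was at 395, 394 and 385 CPM in NONO and 393, 359 and 411 CPM in NONO deltaER, and the genotypes overlapped.

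**Figure D4:**
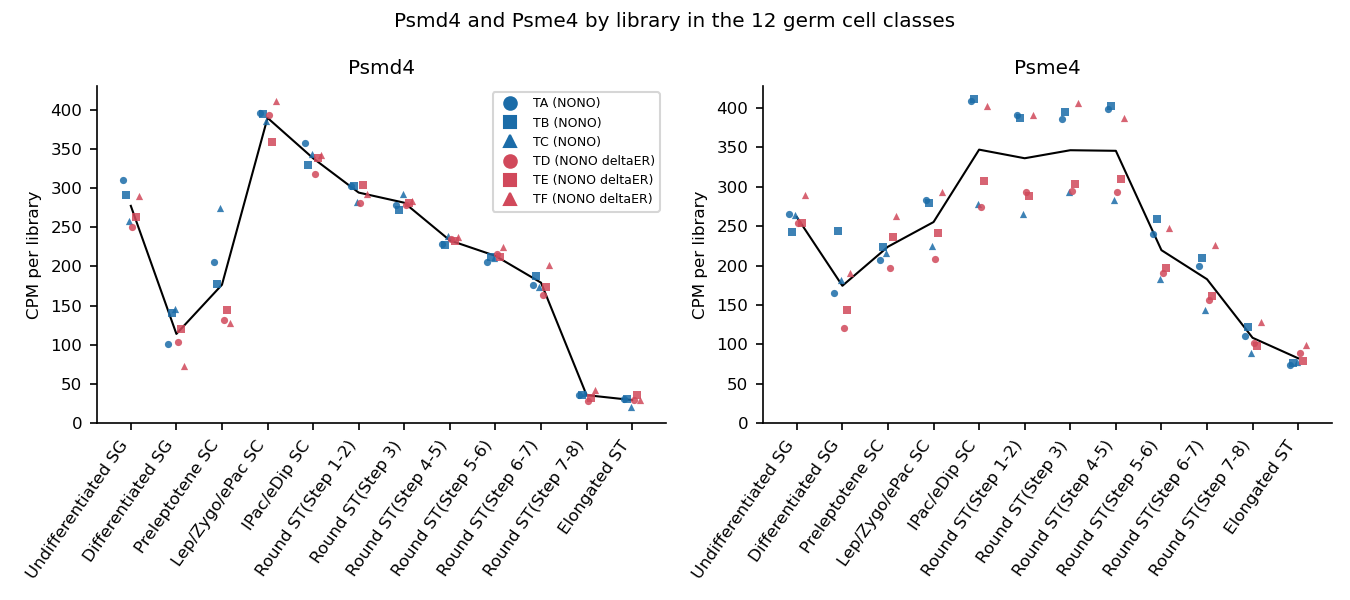
Level of Psmd4 (left) and Psme4 (right) in CPM in the 12 germ cell classes, with 1 point per library (blue NONO, red NONO deltaER) and a line through the means. For Psmd4 in Preleptotene SC the NONO libraries lie between 178 and 274 CPM and the NONO deltaER ones between 127 and 144 CPM, and for Psme4 in IPac/eDip SC TA, TB and TF lie above 400 CPM.

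Whether Psmd4 responded differently in Preleptotene SC and Lep/Zygo/ePac SC was tested on the difference between the classes within each library. The response differed by 0.67 on the log2 scale (limma, unadjusted p = 0.0008, adjusted p = 0.260), which did not pass the threshold. In this pair of classes 9.75% of the 5691 genes had an unadjusted p under 0.05. Over the 11 pairs of neighbouring germ cell classes, 0 of 342 tests of a member were called by limma, as 0.00108% of all tests were, and 12 had an unadjusted p under 0.05, as 4.97% of all had.

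The members leaned below 0 most in 4 classes, though of these tests Psmd4 in Preleptotene SC was the 1 called. In undifferentiated spermatogonia these were 34 of 40 members, with a median log2 fold change of -0.16 against 0.01 over all genes, where 48.4% were below 0. All 7 standard alpha subunits and all 6 base ATPases were among them, while Psme1, Psme2 and Psme3 were above 0, at 0.30, 0.22 and 0.22. In Preleptotene SC they were 25 of 34 (median -0.18, 50.2% of all genes), in Differentiated SG 23 of 31 (median -0.15, 50.5%) and in Sertoli cells 28 of 38 (median -0.17, 49%). Without TC the Sertoli count was 26 of 39 with a median of -0.07. On cells with at least 1000 UMI the Preleptotene SC median was -0.11, and without the filter on low counts that of Differentiated SG was -0.10. In Leydig cells 25 of 36 were below 0 (median -0.03, 48.3% of all genes), but 18 of 38 without TB (median 0.04). The members summed to 6680, 6359 and 6144 CPM in NONO and 5913, 6236 and 5979 in NONO deltaER undifferentiated spermatogonia, which overlapped. In Preleptotene SC they summed to 5039, 4855 and 5157 against 4695, 4525 and 4555 CPM, which did not. In Lep/Zygo/ePac SC 23 of 38 were below 0 (median -0.02, 50.4% of all genes), in Round ST(Step 4-5) 15 of 39 (49.6%) and in Step 6-7 17 of 33 (49.5%). Members of 1 library share its cells and its depth, so these counts carry no test.

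**Figure D5:**
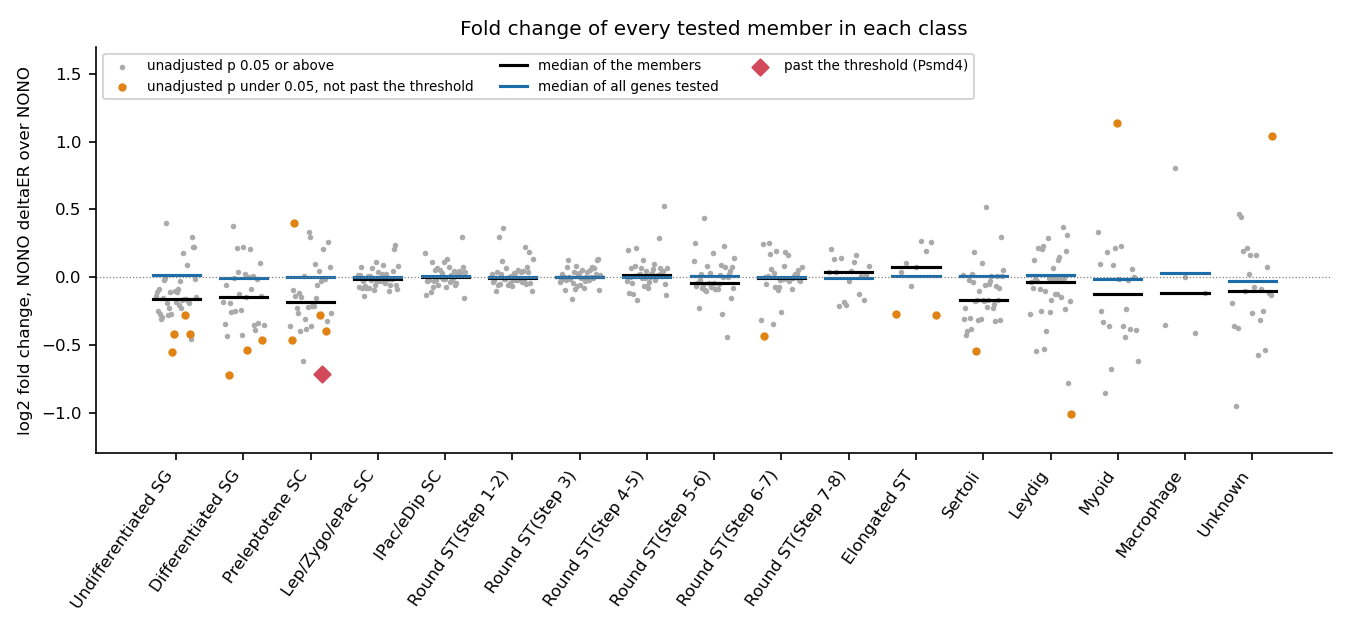
Log2 fold change of NONO deltaER over NONO for each member tested (points) in the 17 classes, with the median of the members (black bars) and of all genes tested (blue bars). Orange points have an unadjusted p under 0.05 and the red diamond, Psmd4, passed the threshold. The black bar lies at -0.16 in undifferentiated spermatogonia and at -0.02 in Lep/Zygo/ePac SC.

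Among single members short of the threshold, Psmd8 of the lid had 240, 249 and 239 CPM in NONO and 192, 157 and 217 CPM in NONO deltaER undifferentiated spermatogonia (log2 fold change -0.42, adjusted p = 0.162). The ATPase Psmc3 had 154, 205 and 192 against 143, 152 and 131 CPM there (-0.42, adjusted p = 0.158). The genotypes did not overlap for either, as for 21.9% of all genes in this class, where 0.0271% of genes were called and 16.2% had an unadjusted p under 0.05. The markers of undifferentiated spermatogonia summed to 682 to 702 CPM in NONO and 761 to 1111 CPM in NONO deltaER cells of this class, and their part in these values was not tested. In Differentiated SG, Psma5 (-0.72, adjusted p = 0.551) and Psmd12 (-0.54, adjusted p = 0.603) did not overlap either, as 12.6% of all genes did not. In Preleptotene SC, Psma4 had 104, 110 and 119 against 145, 128 and 170 CPM, a log2 fold change of 0.40 with an adjusted p of 0.410, where 16.7% of all genes did not overlap. Psmb6 had 91.8, 95.3 and 137 against 70.1, 62.9 and 88.2 CPM in Sertoli cells (-0.55, adjusted p = 0.960, 9.53% of all genes without overlap), and without TC the log2 fold change was -0.32.

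The testis and immune forms gave no call between the genotypes. The share of Psma8 was 98.1% in NONO and 98.2% in NONO deltaER in Lep/Zygo/ePac SC, 97.3% and 95.3% in Preleptotene SC and 34.9% and 37.7% in undifferentiated spermatogonia, with ranges that overlapped in each. For the level of Psma8 the genotypes did not overlap in Lep/Zygo/ePac SC, at 604 to 613 CPM against 576 to 585, as for 8.92% of all genes, but the log2 fold change was -0.06 with an unadjusted edgeR p of 0.326. Psme4 had a log2 fold change of -0.02 (SE 0.12) in undifferentiated spermatogonia and 0.07 (SE 0.15) in Preleptotene SC. Psmf1 and Psma6 had -0.28 and -0.27 in Elongated ST, at edgeR adjusted p of 0.793, where 5.93% of genes had an unadjusted p under 0.05. Without TE these were -0.46 and -0.41, and without TD they were -0.20 and -0.14.

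Of the other genes of the pathway none passed the threshold in any class by edgeR. In undifferentiated spermatogonia 16 of 27 were below 0 and 4 had an unadjusted p under 0.05, among them Ubb (-0.36, adjusted p = 0.156) and Ddi2 (0.37). In Preleptotene SC 15 of 22 were below 0 and 6 had such a p, all below 0, where 11.7% of all genes had one, with Adrm1, another ubiquitin receptor of the base, at -0.68 and Ubb at -0.34 (adjusted p = 0.160). In all cells 1 of 28 had such a p, Psmg2 at -0.22. Of the 9 interferon and antigen presentation genes measured none passed the threshold in any class by edgeR, and 1, Irf1 in the class Unknown, had an unadjusted p under 0.05.

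Levels also followed a split of the libraries that crosses the genotypes. TA, TB and TF had a median mitochondrial share of 0.0735%, 0.0959% and 0.132% of UMI, against 0.00846%, 0.0182% and 0.0147% in TC, TD and TE. In IPac/eDip SC Psme4 was at 407 ± 4.83 CPM in the first 3 and 287 ± 18.1 in the others, and in Round ST(Step 6-7) Psmf1 was at 2982 ± 90.4 and 3336 ± 13.5 (SD, n = 3 each). In Round ST(Step 4-5) these library sets did not overlap for 11 of 39 members, beside 37.1% of all genes, and in Lep/Zygo/ePac SC for 13 of 38, beside 29.1%. With the set as a covariate the log2 fold change of Psmd4 in Preleptotene SC was -0.82 with an edgeR adjusted p of 0.0478.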

How the data were processed

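The authors deposited a table of UMI counts per gene and cell for 46495 cells of 6 libraries, with a library, a group and a cell class for each cell and the percent of mitochondrial UMI. Per the submitters' processing notes the reads were processed with Cell Ranger 2.1.1 and mm10. The sources used here do not say how cells were filtered and classes named. Library letters were tied to a group by the deposited table and to no numbered sample. The deposited percent was used to describe libraries.

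UMI were summed per library and deposited fine class, since cells are not replicates. Every class had at least 20 cells in each library. Genotypes were compared by edgeR 4.0.16 (R 4.3.3; TMM, filterByExpr, robust quasi-likelihood test), with Benjamini-Hochberg adjustment over all genes of a class, and neighbouring classes by limma 3.58.1 on within-library differences of log2 CPM with a prior count of 2. Both were also run on simulated counts with the same spread for every gene and no difference between the sets of libraries. Those runs cannot show how the tests behave on these libraries. No doublet caller was run, and an alternative left out the 5% of cells with the most UMI. Intervals are exact and cover counting error only. Values in every library were given in at least 1 class for Psma7, Psma8, Psmb5 to Psmb7, Psme1 to Psme4 and members past the threshold. Psmb8 and Psmb9 were given as UMI pooled over the libraries. Others were named at the ends of their role, for an unadjusted p under 0.05 without overlap, or after their values were seen (Psma6, Psmf1, Psmd8, Psmc2, Psmc3 and Psmd10). The members and gene lists were chosen with earlier results of these data known. Positions are from GENCODE M21 on mm10 and windows from RefSeq. The ends of Psmd1, Psmb5, Psmb3 and Psmd2 share 74.4%, 61.8%, 54.1% and 50.4% of their 31-base words with a gene that is not among the measured ones, so their counts are less certain. The 13 alternatives changed the test, the scaling, the filter, the cells or the libraries used.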

Additional observations from a re-analysis of the deposited data

How the results depend on the processing

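The 1 call, Psmd4 in Preleptotene SC, kept its direction under all 13 alternatives (log2 fold change -0.82 to -0.58) and passed the threshold in 6 of them, with adjusted p from 0.0197 to 0.999. Of the members called lower there were 0 with DESeq2, 0 on cells with at least 1000 UMI, 0 with equal cell numbers and 2 without the filter on low counts, where Psmc2 in undifferentiated spermatogonia joined Psmd4. Leaving out 1 library at a time gave 0 to 3: 2 without TA (Psmd4, and Psmc3 in undifferentiated spermatogonia), 1 without TB, 0 without TC, TD or TE, and 3 without TF (Psmc2, Psmd8 and Psma6 in undifferentiated spermatogonia). Over all genes of undifferentiated spermatogonia 3 of 11064 were called. This became 242 of 11064 with DESeq2, 825 of 21974 without the filter, 594 of 11524 without TA and 634 of 11512 without TF. In Preleptotene SC 19 of 5818 genes were called, against 0 with DESeq2, 28 of 17247 without the filter, 108 of 5933 without TA and 14 of 6326 without TB. The members called under these alternatives are thus to be read beside many other genes. The cause of these shifts was not tested. No member was called higher, in all cells or in the comparison of classes under any alternative run.

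Leaving out 1 library moved the share of Psma8 to 34.3 to 39.4% in undifferentiated spermatogonia, 95.9 to 97.5% in Preleptotene SC, 98.1 to 98.2% in Lep/Zygo/ePac SC, 87.9 to 88.3% in Round ST(Step 4-5) and 43.6 to 45.6% in Sertoli cells, and the inducible share to 8.97 to 11.2% in macrophages and 1.14 to 1.33% in Leydig cells. The Sertoli share of Psma8, 44.8%, was 38.7% without the 5% of cells with the most UMI and 39.5% as a mean over cells. The inducible share in macrophages, 10.2%, was 5.95% on cells with at least 1000 UMI. On those cells the fits of Macrophage, Myoid and Unknown had 4, 5 and 4 libraries. Depth limits the shares in classes with few UMI, such as Differentiated SG (59 UMI of Psma7 and Psma8) and macrophages (111 UMI of Psmb5 to Psmb9). No paired analysis was possible because the library letters in the deposited table carry no replicate number of the labels.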
